A study of Homo sapiens with 34 samples.

Results

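The WNT feedback target genes are 10 genes that canonical Wnt signaling is known to switch on: AXIN2, NKD1, RNF43, ZNRF3, LGR5, DKK1, NOTUM, LEF1, TCF7 and SP5. They were taken by matching these symbols in the count tables, where each matched 1 identifier of 37951 genes listed, and all 10 passed the filter on low counts, as did 17895 genes in all. The samples were 34 RNA sequencing libraries, 2 replicates of each of 17 conditions, from wild-type ESI017, a human embryonic stem cell line in wide use, grown as human pluripotent stem cells (hPSCs). The Control was kept in mTeSR PLUS, a maintenance medium and is labelled 48 h. On day 1, hPSCs were treated for 24 h in 1 of 4 ways that model parts of the primitive streak (PS). DE(a), the first step toward definitive endoderm, was 100 ng/ml activin with 2 µM CHIR. For anterior PS (APS), CHIR was raised to 4 µM and the other factors were 30 ng/ml activin plus 20 ng/ml bFGF. Mid PS (MPS) cells were given CHIR at 6 µM, BMP4 at 40 ng/ml and the APS amounts of activin and bFGF, and posterior PS (PPS) cells the same without activin. On day 2, each population was moved to 1 of 3 media until 48 h. For definitive endoderm, DE(b) combined activin at 100 ng/ml with LDN at 250 nM. PM, for paraxial mesoderm, combined bFGF (20 ng/ml), LDN (250 nM) and A8301 (1 µM), and LM, for lateral mesoderm, combined BMP4 (30 ng/ml), A8301 (1 µM) and IWP2 (4 µM). A condition is named by both steps, as in APS-PM. The labels and the methods of the study list no CHIR in PM medium, whereas its main text describes PM induction as activating Wnt signaling and a legend in its supplement lists 3 µM CHIR. Whether the PM libraries were exposed to CHIR on day 2 was not settled here.

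CHIR inhibits GSK3, the kinase that marks β-catenin for degradation, and so starts the pathway inside the cell without a ligand. IWP2 inhibits porcupine, the enzyme that adds the lipid Wnt ligands need for secretion. LDN and A8301 inhibit the BMP and the activin/TGFβ receptors. Stabilized β-catenin binds TCF/LEF proteins on DNA, and many of the genes it switches on then restrain the pathway at the membrane, in the cytoplasm or outside the cell. In the gastrulating embryo, Wnt signaling is required for the PS and is strongest posteriorly.

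The libraries held between 15522780 and 23439799 estimated counts, with a median of 19341117. Levels are given as CPM, the estimated counts scaled to the total of the library. They are not scaled for gene length, so levels are compared between conditions and not between genes. A count of 3, taken here as the floor of detection, was at most 0.193 CPM and covers counting error only. In bulk RNA, fewer cells that express a gene and less RNA per cell cannot be told apart. The series calls the 2 libraries of a condition biological replicates, and nothing says whether they came from separate cultures, so the p-values measure the spread between these libraries. Markers fitted the labels in the main: the summed level of TBXT, MIXL1 and EOMES was 1.58 to 1.86 CPM in the Control and 1574 to 2955 at 24 h. SOX17, FOXA2 and CXCR4 summed to 124 to 722 CPM in DE(b), TBX6, MSGN1 and MESP2 to 196 to 279.5 in PM and HAND1, FOXF1 and GATA4 to 542 to 2393 in LM. CXCR4 alone reached 156 to 335 CPM in PM, where the median of SOX17 was 0.107 CPM. MESP2 went against its label, with a median of 0 and at most 0.470 CPM in PM, under its 0.722 to 3.05 CPM at 24 h. The PM sum was thus nearly all TBX6 and MSGN1. GATA4 had similar levels in LM and DE(b), which are given below.

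The DNA just before a gene's start can hold the letters that TCF/LEF proteins bind. RefSeq promoters of GRCh38.p14 were given for 5 members, RNF43, DKK1, LEF1, TCF7 and SP5, and both strands were searched for CTTTGAT, for its close relative CTTTGAA, for the variant CTTTGTT and for the variant CTTTGTA. SP5 and DKK1 held a match, 2 of 5 members, beside 13.8% of all 35116 promoters, each read from 250 bases before to 50 after the start. With NOTUM, they are the members whose Control libraries held the fewest counts, and the 250 bases before each start are shown for that reason, with the matches in capitals (TTCAAAG is CTTTGAA on the opposite strand). Both lie on the + strand, SP5 at chr2:170715087-170715336 and DKK1 at chr10:52314031-52314280.
SP5: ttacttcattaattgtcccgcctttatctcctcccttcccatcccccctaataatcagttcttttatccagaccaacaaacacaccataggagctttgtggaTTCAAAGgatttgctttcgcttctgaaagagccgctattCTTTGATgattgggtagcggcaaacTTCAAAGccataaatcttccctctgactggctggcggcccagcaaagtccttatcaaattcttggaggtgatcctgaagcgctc
DKK1: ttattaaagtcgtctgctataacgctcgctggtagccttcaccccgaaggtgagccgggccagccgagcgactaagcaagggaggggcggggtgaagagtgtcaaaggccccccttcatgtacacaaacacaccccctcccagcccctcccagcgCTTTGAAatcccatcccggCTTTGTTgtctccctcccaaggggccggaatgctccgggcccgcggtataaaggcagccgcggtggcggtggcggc
In SP5 the matches began 148, 109 and 84 bases before the start, and in DKK1 95 and 76 bases before it. A match describes these letters and was not tested as a binding site.

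**Figure D1:**
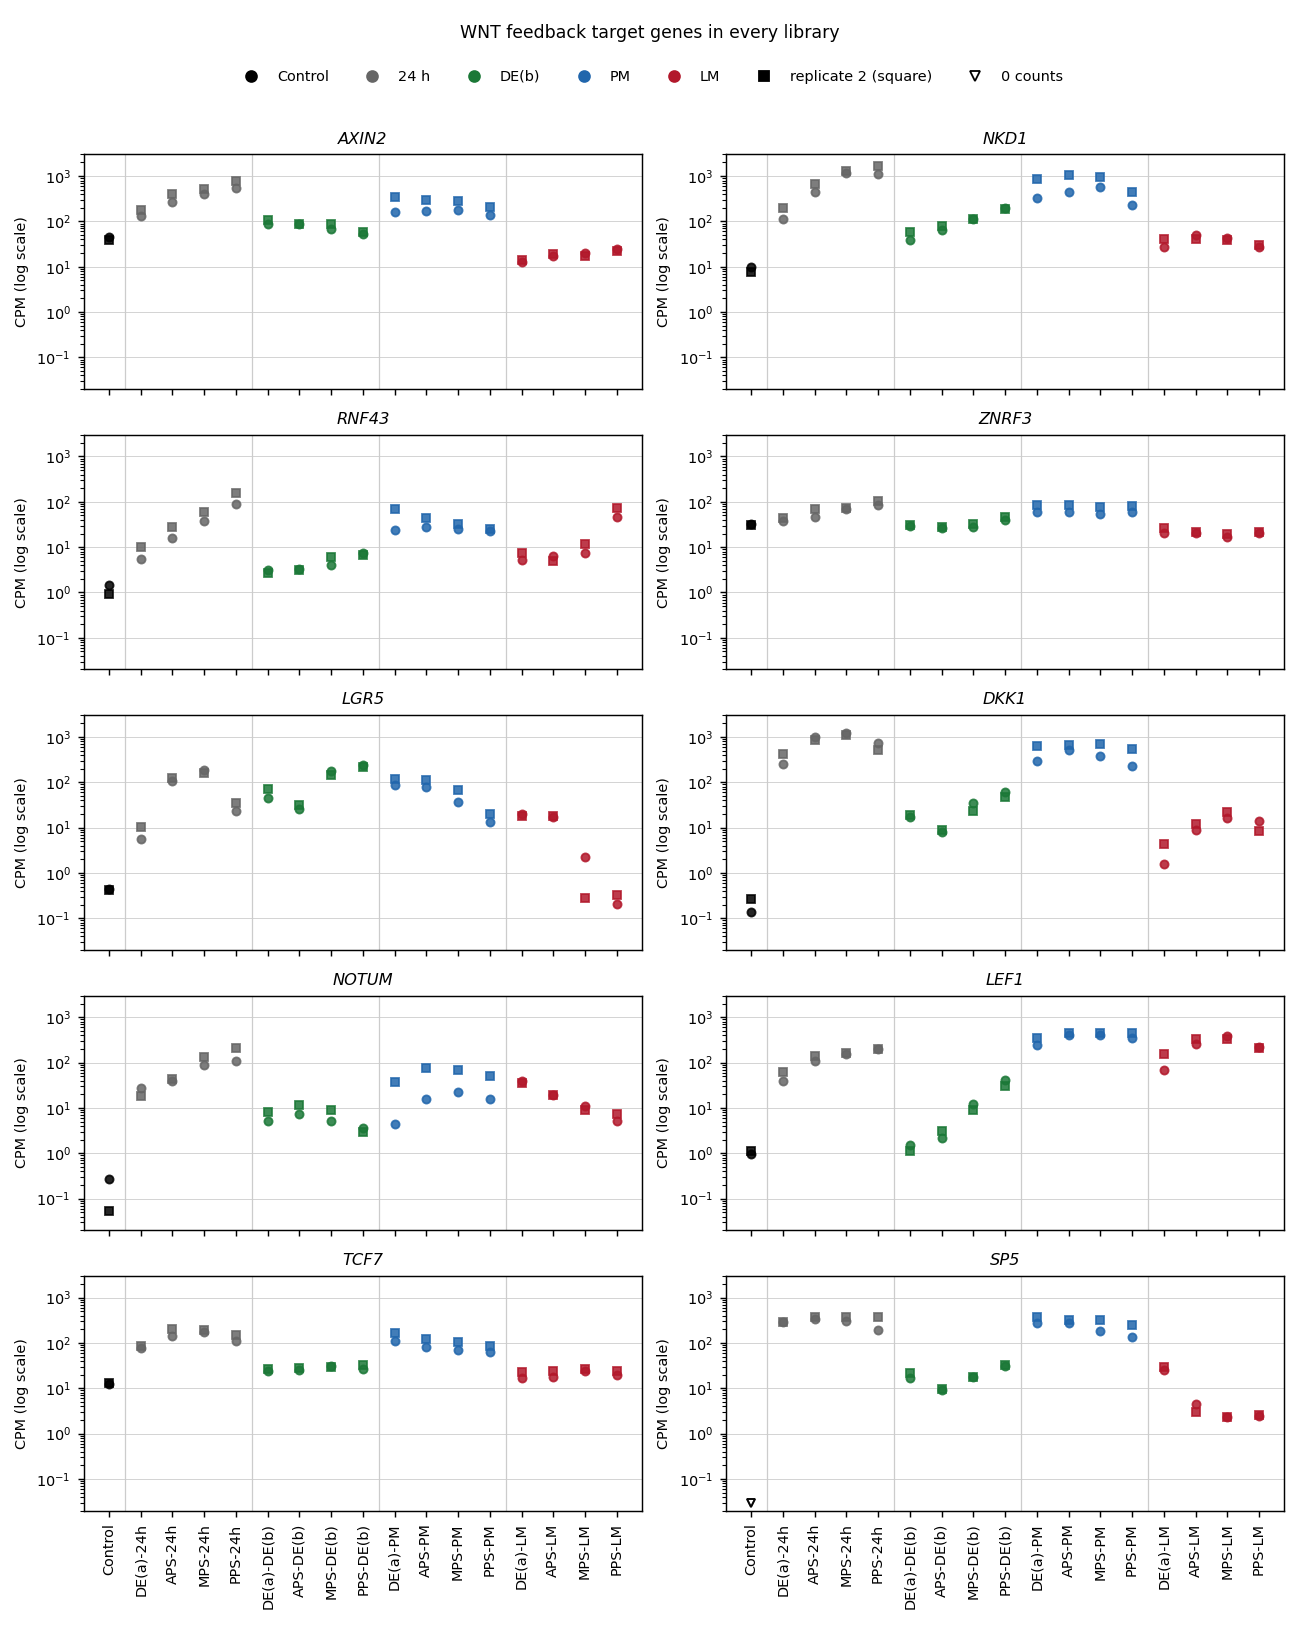
Level of each of the 10 genes in all 34 libraries, in CPM on a log axis, with circles for replicate 1 and squares for replicate 2, by condition. The Control is black, the libraries at 24 h grey, DE(b) green, PM blue and LM red, and SP5 at 0 counts in both Control libraries is drawn as an open triangle at the bottom of its panel; in LM (red) all 8 libraries of AXIN2, NKD1, ZNRF3, DKK1, TCF7 and SP5 lie under the 8 of PM (blue).

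The first question was how the feedback genes stood in undifferentiated hPSCs and after the 24 h of day 1 treatment. Each treatment combined CHIR with activin, bFGF or BMP4, and the Control is labelled 48 h. The methods of the study give Essential 6 as the base medium of day 1, while the Control had mTeSR PLUS. The parts of these differences cannot be told apart here. All members except ZNRF3 were higher than in the Control after each of the 4 day 1 treatments, and ZNRF3 after 3 of them. At the lowest dose of CHIR, in DE(a), 9 of 10 members rose and their median log2 fold change was 4.23, with 0.03 over all genes. In the same comparison 10.3% of the genes tested were called higher and 8.68% lower. In APS, MPS and PPS all 10 rose, with medians of 6.53, 7.30 and 7.02 (0.02, 0.00 and 0.01 over all genes). Genes called higher made up 13.6% of those tested in APS, 16.5% in MPS and 16.4% in PPS, and genes called lower 11.0%, 13.4% and 13.4%. These medians were the same with SP5 set at its lower bound. The 4 comparisons share the 2 Control libraries and are not independent. In 6 members, NKD1, RNF43, DKK1, NOTUM, TCF7 and SP5, both Control libraries were lower than all 32 treated libraries, as in 5.52% of all genes. Adjusted p-values here and below are from the quasi-likelihood test of edgeR over 17895 genes. Errors of fold changes are standard errors (SE) computed here from its F statistic, as the size of the log2 fold change over the square root of F.

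Positions are those of GENCODE v44 on GRCh38. Inside the cell, AXIN2 (chr17:65528563-65561648, - strand) encodes a scaffold of the complex that degrades β-catenin, and was already at 45.7 and 39.2 CPM in the Control. It was at 135 and 179.9 CPM in DE(a), 265 and 398 CPM in APS, 402 and 519 CPM in MPS and 549 and 795 CPM in PPS. Each pair lay above the one before it without overlap, and each was above the Control, from DE(a) (log2 fold change 1.99 ± 0.33, adjusted p = 0.000108) to PPS (log2 fold change 4.00 ± 0.36, adjusted p = 1.65e-08). NKD1 (chr16:50548396-50649249, + strand), an inhibitor that binds Dishevelled, was at 9.99 and 7.71 CPM in the Control. It reached 114 and 198 CPM in DE(a), 454 and 672 CPM in APS, 1169 and 1310.2 CPM in MPS and 1093 and 1714 CPM in PPS. The PPS libraries lay on either side of the MPS ones. The log2 fold change of NKD1 over the Control went from 4.23 ± 0.51 in DE(a) to 7.22 ± 0.58 in MPS and 7.33 ± 0.58 in PPS, all called.

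At the membrane, RNF43 (chr17:58353676-58417595, - strand) and ZNRF3 (chr22:28883572-29057488, + strand) are related ubiquitin ligases that remove Frizzled receptors, and LGR5 (chr12:71439798-71586310, + strand) is a receptor for R-spondins, which hold those ligases back. RNF43 was at 1.43 and 0.910 CPM in the Control and lay in steps without overlap, at 5.35 and 10.2 CPM in DE(a), 15.9 and 28.0 CPM in APS, 36.9 and 59.7 CPM in MPS and 88.8 and 157 CPM in PPS. In PPS it was the furthest above the Control (log2 fold change 6.71 ± 0.57, adjusted p = 7.83e-09). ZNRF3 was at 32.04 and 31.2 CPM in the Control and changed least of the 10. It stood at 37.9 and 43.1 CPM in DE(a), which did not pass the test (log2 fold change 0.45 ± 0.23, adjusted p = 0.21), and at 83.3 and 107 CPM in PPS, which did (log2 fold change 1.61 ± 0.24, adjusted p = 1.87e-05). In APS its 45.9 and 67.9 CPM passed as well (log2 fold change 0.93 ± 0.23, adjusted p = 0.00501), a call that was lost without APS-24h replicate 2 (adjusted p = 0.131). LGR5 had another order. It was at 0.452 and 0.425 CPM in the Control, from 10 and 8 counts, at 5.53 and 10.1 CPM in DE(a), at 108 and 126 CPM in APS and at 185 and 163 CPM in MPS, but only at 23.5 and 35.4 CPM in PPS. PPS shared its CHIR dose with MPS and differed by the absence of activin.

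Outside the cell, DKK1 (chr10:52314281-52318042, + strand) is a secreted antagonist of the co-receptors LRP5 and LRP6, and NOTUM (chr17:81952507-81961840, - strand) is a secreted enzyme that strips the lipid from Wnt ligands. DKK1 held 3 and 5 counts in the Control libraries (0.135 and 0.266 CPM). It was at 253 and 424 CPM in DE(a), 981 and 844 CPM in APS, 1238 and 1087 CPM in MPS and 717 and 517 CPM in PPS, so that both PPS libraries lay between DE(a) and APS. Over the Control its log2 fold change was between 10.81 ± 0.75 in DE(a) and 12.59 ± 0.78 in MPS, sizes that rest on those few counts. NOTUM held 6 counts and 1 count in the Control (0.271 and 0.0532 CPM). It was at 26.9 and 18.5 CPM in DE(a), 38.7 and 43.8 CPM in APS, 89.6 and 129.8 CPM in MPS and 111 and 209 CPM in PPS. In DE(a) it was above the Control (log2 fold change 7.10 ± 1.18, adjusted p = 0.00011). Without Control replicate 1 this fold change was 8.65 and without Control replicate 2 it was 6.45, both called. In every comparison of NOTUM with the Control, leaving out either Control library moved the fold change by more than 1.5 times.

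Among the transcription factors, LEF1 (chr4:108047545-108168956, - strand) and TCF7 (chr5:134114681-134151865, + strand) are DNA-binding partners of β-catenin, and SP5 (chr2:170715337-170718078, + strand) is an SP-family factor known to restrain other Wnt target genes. LEF1 was at 0.948 and 1.12 CPM in the Control, 38.5 and 61.3 CPM in DE(a), 107 and 142 CPM in APS, 157 and 162 CPM in MPS and 197 and 199 CPM in PPS, again in steps without overlap. TCF7 was at 12.7 and 12.8 CPM in the Control and at 78.4 and 87.0 CPM in DE(a). It stood at 146 and 199 CPM in APS, 173 and 189.9 CPM in MPS and 111 and 148 CPM in PPS. SP5 had 0 counts in both Control libraries, which allows up to 3 counts in each. It was at 286 and 296 CPM in DE(a), 334 and 382 CPM in APS, 310.0 and 376 CPM in MPS and 193 and 372 CPM in PPS. Against the floor of 3 counts in each Control library, SP5 was at least 1976-fold higher in DE(a) and at least 2427-fold higher in APS.

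**Figure D2:**
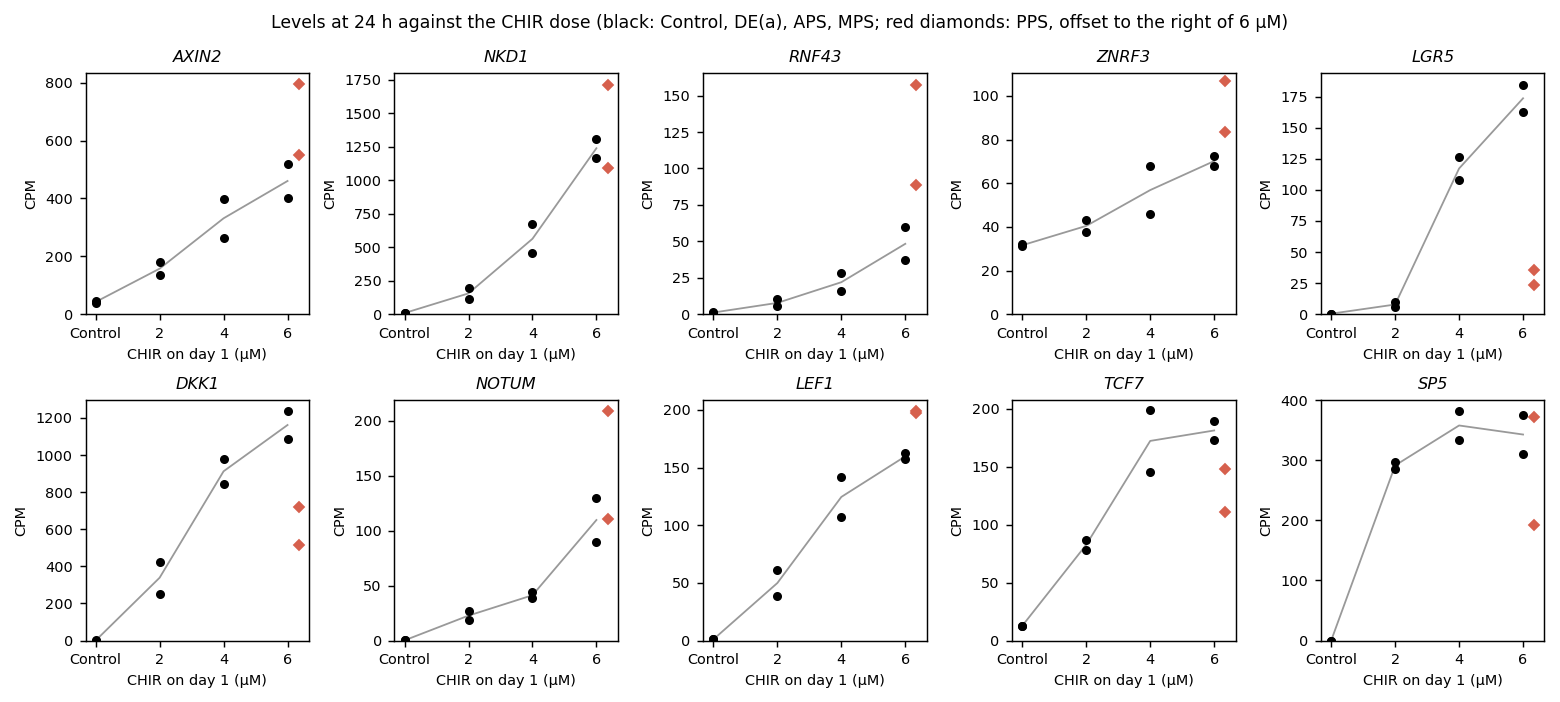
Level of each gene at 24 h in CPM (linear axes from 0) against the CHIR dose of day 1 in µM, with 1 point per library and a line through the means of the Control, DE(a), APS and MPS. The Control, drawn at the left end of the line, is labelled 48 h, has no CHIR dose listed and was kept in maintenance medium. It is not a point of a dose series at 24 h. Red diamonds are the 2 PPS libraries, which also received 6 µM CHIR and are offset to the right; for LGR5 they lie at 23.5 and 35.4 CPM, under the MPS and APS libraries, and for SP5 the line is nearly flat from 2 µM on.

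The next question was how the genes followed the CHIR dose, 2, 4 and 6 µM, over DE(a), APS and MPS. The dose of CHIR changed together with other factors at each step: activin fell and bFGF was added between DE(a) and APS, and BMP4 was added between APS and MPS. Their parts cannot be told apart here. The 4 treatments differed in 9 of 10 members in an F test over the 4 conditions at 24 h, beside 18.8% of all genes. LGR5 (adjusted p = 2.94e-07) and RNF43 (adjusted p = 7.79e-06) had the smallest p. SP5 was the member without a call (adjusted p = 0.67): its 8 libraries at 24 h lay between 193 and 382 CPM, and its highest condition mean was 1.27 times its lowest, compared with 22.2 times for LGR5 and 15.8 times for RNF43. The F test rests on 1 library for some members. It was lost for ZNRF3 without PPS-24h replicate 2 (adjusted p = 0.0511), for TCF7 without DE(a)-24h replicate 1 (adjusted p = 0.0883), and for DKK1 without DE(a)-24h replicate 1 (adjusted p = 0.167) or MPS-24h replicate 1 (adjusted p = 0.0745). For NOTUM it was lost without replicate 1 of DE(a)-24h (adjusted p = 0.0817) or APS-24h (adjusted p = 0.0519), or replicate 2 of DE(a)-24h (adjusted p = 0.114) or PPS-24h (adjusted p = 0.121).

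In 7 of 10 members, AXIN2, NKD1, RNF43, LGR5, DKK1, NOTUM and LEF1, both DE(a) libraries lay under both APS libraries and these under both MPS libraries, an order that 5.71% of all genes showed. From DE(a) to APS all 10 members were higher without overlap, as were 17% of all genes, and 2 passed the test, beside 0.609% of all genes called higher. LGR5 rose (log2 fold change 3.89 ± 0.43, adjusted p = 2.03e-05), the larger of these changes, and LEF1 (log2 fold change 1.30 ± 0.29, adjusted p = 0.037). The LEF1 call was lost without DE(a)-24h replicate 1 (adjusted p = 0.669), APS-24h replicate 1 (adjusted p = 0.0502) or APS-24h replicate 2 (adjusted p = 0.459). The values for NKD1 (log2 fold change 1.84 ± 0.45, adjusted p = 0.0643) and TCF7 (log2 fold change 1.04 ± 0.26, adjusted p = 0.0734) did not pass in edgeR, and 7 members had an unadjusted p under 0.05. Both were called in DESeq2 (adjusted p = 0.00222 for NKD1 and 0.012 for TCF7), where 4 members passed, and 8 members passed in edgeR without the low-count filter. For these and the other alternative settings below, the share of all genes called is not given setting by setting. Such counts show only how the calls depend on the fit. With a term for the replicate number in edgeR, calls were added for AXIN2 (adjusted p = 0.0214), NKD1 (0.00413), RNF43 (0.0198) and TCF7 (0.000558). The median over the members was 1.18, with 0.00 over all genes. From APS to MPS, 0 of 10 members passed in edgeR and 0 in DESeq2, beside 2.93% of genes called in either direction in edgeR. The differences of NKD1 (log2 fold change 1.15 ± 0.44, adjusted p = 0.229) and RNF43 (log2 fold change 1.15 ± 0.43, adjusted p = 0.209) were the 2 with an unadjusted p under 0.05. Without the low-count filter, 3 members were called in edgeR, NKD1, RNF43 and NOTUM, and with the fit restricted to the libraries compared 1 was, NOTUM (adjusted p = 0.0385). With the replicate term, NKD1 (adjusted p = 0.0424) and RNF43 (0.0327) were called in edgeR. The members' median was 0.43, with -0.01 over all genes.

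Between PPS and MPS, which had the same CHIR dose, LGR5 was the 1 member called, lower in PPS (log2 fold change -2.64 ± 0.40, adjusted p = 0.000245), beside 3.35% of all genes called lower. With LGR5, DKK1 and TCF7 were lower in both PPS libraries than in both MPS libraries, as were 19.1% of all genes. AXIN2, RNF43, ZNRF3 and LEF1 were higher without overlap, as were 28.5% of all genes. Apart from that of LGR5, these differences did not pass the test. RNF43 had the largest of these differences (log2 fold change 1.28 ± 0.42, adjusted p = 0.0785), and it was called without PPS-24h replicate 1 (adjusted p = 0.0407), which raised the count of members called from 1 to 2. RNF43 was also called in DESeq2 (adjusted p = 0.034), and RNF43 and DKK1 in edgeR without the low-count filter. With the replicate term, RNF43 (adjusted p = 0.01) and TCF7 (0.0175) were called in edgeR. DKK1 had the largest difference among those lower in PPS that were not called (log2 fold change -0.99 ± 0.43, adjusted p = 0.198). The members' median was 0.17, with 0.00 over all genes.

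On day 2, the genes went apart by medium. In DE(b), compared with the mean of the 4 populations at 24 h, 9 of 10 members fell and LGR5 rose, beside 26.2% of genes called lower and 24.8% called higher. The mean CPM of LGR5 was 7.26 times its 24 h level from DE(a) and 7.74 times from PPS, but 0.243 times from APS and 0.926 times from MPS. In LM, 9 fell and LEF1 rose, beside 28.6% called lower and 27.4% higher. From DE(a), however, LGR5 and NOTUM had higher mean CPM in LM than at 24 h, by 2.42 and 1.64 times. In PM, 5 fell, LEF1 rose and 4 did not pass, beside 25.1% called lower and 23.2% higher. The PM contrast averages day 1 populations that moved in different directions. From DE(a), all members but NOTUM had a higher mean CPM in PM than at 24 h. From PPS, all but LEF1 had a lower one. For AXIN2, NKD1, RNF43 and LGR5 the ratios were 1.62, 3.82, 5.93 and 13.0 from DE(a) and 0.254, 0.241, 0.195 and 0.569 from PPS. The members' median log2 fold change from 24 h was -2.85 for DE(b), -3.27 for LM and -0.28 for PM, with medians over all genes of -0.02, -0.01 and -0.02. These comparisons share the 8 libraries at 24 h, and they set 48 h against 24 h as well as medium against medium.

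DKK1 and SP5 had the largest falls in LM and were, with LEF1, those with the largest falls in DE(b). DKK1 went from a range of 253 to 1238 CPM at 24 h (median 781) to 7.80 to 60.5 in DE(b) (median 20.9) and to 1.60 to 21.8 in LM (median 10.48), while it was at 233 to 687 in PM (median 536). SP5 went from 193 to 382 CPM at 24 h (median 322) to 9.12 to 32.9 in DE(b) (median 17.5) and to 2.34 to 29.1 in LM (median 2.80), and was at 136 to 376 in PM (median 272). For both genes all libraries in DE(b) and LM lay under all those at 24 h and in PM. In LM both fell from their levels at 24 h, DKK1 (log2 fold change -6.27 ± 0.27, adjusted p = 3.75e-14) and SP5 (log2 fold change -6.03 ± 0.18, adjusted p = 5.48e-16). In the mean over the 4 populations in PM, AXIN2 fell by 0.78 ± 0.16 from its level at 24 h (adjusted p = 0.000288) and TCF7 by 0.55 ± 0.13 (adjusted p = 0.00117), on the log2 scale of edgeR. LEF1 rose by 1.60 ± 0.15 (adjusted p = 8.68e-09). From DE(a) alone, AXIN2 and TCF7 had higher mean CPM in PM than at 24 h, by 1.62 and 1.66 times.

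The other falls in PM were near the threshold and rested on single libraries. DKK1 fell by 0.58 ± 0.21 (edgeR, adjusted p = 0.0299), but not without replicate 1 of any PM condition or of APS-24h, MPS-24h or PPS-24h, or without replicate 2 of DE(a)-24h (adjusted p = 0.0607 to 0.0963). NOTUM fell by 0.95 ± 0.36 (adjusted p = 0.0316), but not without replicate 1 of any PM condition or of DE(a)-24h, or without replicate 2 of APS-24h, MPS-24h or PPS-24h (adjusted p = 0.0525 to 0.0803). SP5 fell by 0.37 ± 0.14 (adjusted p = 0.0378), but not without replicate 1 of any PM condition or of DE(a)-24h, or without replicate 2 of any of the 4 populations at 24 h (adjusted p = 0.0581 to 0.161). Without replicate 1 of any 1 PM condition, 3 members were called in PM against 24 h in place of 6. NKD1, RNF43, ZNRF3 and LGR5, each higher in PM than at 24 h from DE(a) and lower from PPS, did not pass.

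LM, the medium with IWP2, was compared with PM, which shares A8301 with it but holds bFGF and LDN in place of BMP4 and IWP2. These differences, and any CHIR in PM, cannot be told apart. In the means over the 4 populations all 10 members were lower in LM, beside 21.0% of genes called lower and 21.0% called higher, with a median log2 fold change of -2.83 (0.00 over all genes). Within single populations, NOTUM from DE(a) and RNF43 from PPS had higher mean CPM in LM, by 1.82 and 2.49 times. In 6 members, AXIN2, NKD1, ZNRF3, DKK1, TCF7 and SP5, all 8 LM libraries lay under all 8 PM libraries, which was so for 6.62% of all genes. AXIN2 was at 12.6 to 24.2 CPM in LM (median 18.4) and 137 to 345 in PM (median 194), with a log2 fold change of -3.55 ± 0.18 (adjusted p = 2.77e-13). NKD1 was at 26.7 to 49.2 CPM in LM (median 39.7) and 228 to 1084 in PM (median 507), with a log2 fold change of -3.94 ± 0.25 (adjusted p = 1.21e-11). DKK1 (log2 fold change -5.69 ± 0.27, adjusted p = 1.04e-13) and SP5 (log2 fold change -5.66 ± 0.18, adjusted p = 7.95e-16), whose ranges are given above, differed most.

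At the membrane, LGR5 was lower in LM (log2 fold change -4.00 ± 0.24, adjusted p = 7.97e-12), with 0.21 to 19.8 CPM in LM (median 9.89) and 13.1 to 116 in PM (median 73.6). ZNRF3 was at 16.4 to 26.8 CPM in LM (median 20.7) and 54.5 to 83.7 in PM (median 67.7), and RNF43 at 4.94 to 74.0 in LM (median 7.36) and 22.4 to 68.2 in PM (median 27.2). The groups of RNF43 overlapped because of PPS-LM, which is described below. TCF7 was at 16.8 to 26.1 CPM in LM (median 23.2) and 61.9 to 163 in PM (median 96.2). The smallest differences were those of NOTUM and LEF1. NOTUM was at 5.18 to 40.0 CPM in LM (median 15.1) and 4.498 to 77.5 in PM (median 29.3), with a log2 fold change of -1.21 ± 0.37 (adjusted p = 0.0107), and its call was lost without DE(a)-PM replicate 2 (adjusted p = 0.121) or APS-PM replicate 2 (adjusted p = 0.0688). LEF1 was at 68.4 to 382 CPM in LM (median 241) and 250 to 454 in PM (median 399.9), with a log2 fold change of -0.71 ± 0.14 (adjusted p = 0.00034).

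Markers of other cell types moved with the media. HAND1, FOXF1 and GATA4 of the lateral mesoderm were all 3 present in LM, at a summed 542 to 2393 CPM compared with 15.3 to 63.7 in PM and 107 to 241 in DE(b). HAND1 made up most of the LM sum (median 1659 CPM). GATA4 did not set LM apart from DE(b): its 2 identifiers had medians of 56.6 and 101 CPM in LM and 53.7 and 93.0 in DE(b). The PS markers TBXT, MIXL1 and EOMES summed to 1.28 to 19.4 CPM in LM, 279 to 761 in PM and 1021 to 1739 in DE(b). TFAP2A, GATA3, ISL1, IGFBP3 and GABRP, known from the amnion, were all 5 detected in each LM library. They summed to 102 to 1146 CPM in LM, 1.58 to 13.7 in PM, 2.98 to 25.1 in DE(b) and 14.7 to 14.9 in the Control. GABRP had a median of 1.33 CPM in LM (0.664 to 51.9), under its 3.12 to 4.15 in the Control. IGFBP3 ranged from 10.9 to 709 CPM in LM and from 10.2 to 11.0 in the Control. The neural markers PAX6 and SOX1 summed to at most 0.282 CPM in PM and 0.127 in LM. The part of cell type in the differences of the feedback genes was not tested.

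**Figure D3:**
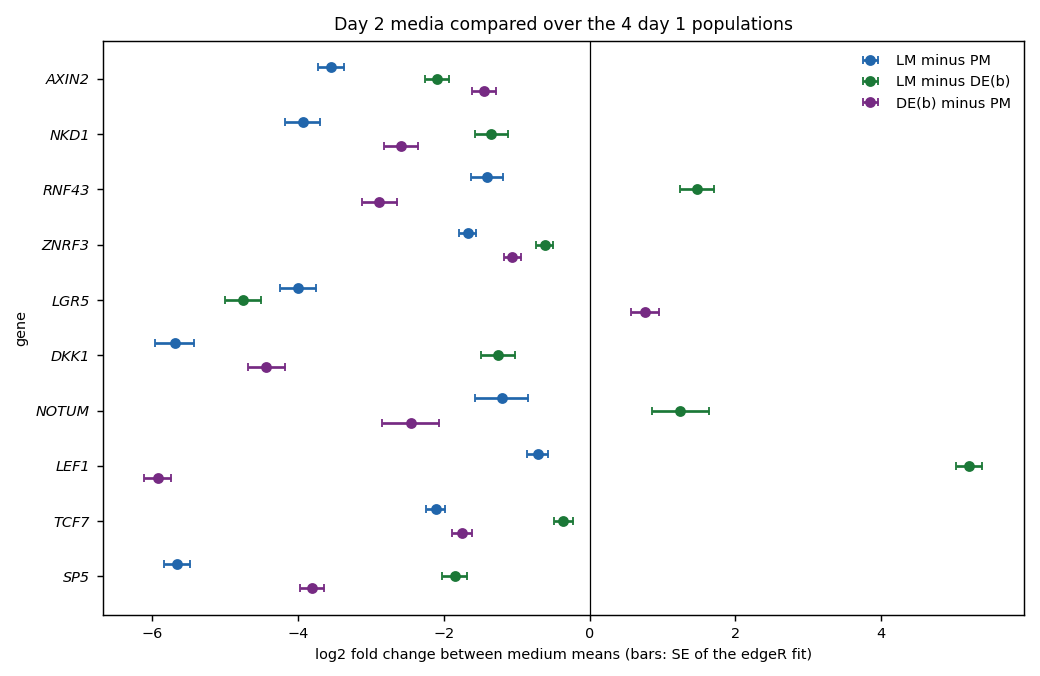
Log2 fold change of each gene between the means of 2 day 2 media over the 4 day 1 populations, with bars for the SE computed from the F statistic of edgeR and a line at 0. Blue points (LM minus PM) are all under 0, from -5.69 for DKK1 to -0.71 for LEF1; green points (LM minus DE(b)) lie above 0 for RNF43, NOTUM and LEF1; purple points (DE(b) minus PM) lie above 0 for LGR5 alone.

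Compared with DE(b), a medium with neither CHIR nor IWP2 listed, 7 members were lower in LM and 3 higher, beside 19.8% of all genes called lower and 19.8% higher. The median of the members was -0.94 (0.02 over all genes). The media also differed in activin, LDN, BMP4 and A8301, whose parts and that of IWP2 cannot be told apart. AXIN2 was at 52.6 to 108 CPM in DE(b) (median 86.4), above every LM library (log2 fold change -2.10 ± 0.17, adjusted p = 7.92e-10). LGR5 was at 25.7 to 241 CPM in DE(b) (median 107), also above every LM library (log2 fold change -4.76 ± 0.25, adjusted p = 5.23e-13). These were the 2 members in which all LM libraries lay under all DE(b) libraries, as in 4.08% of all genes. NKD1, ZNRF3, DKK1 and SP5 were lower in LM by 1.35 ± 0.22, 0.62 ± 0.12, 1.26 ± 0.24 and 1.85 ± 0.17 (log2, all called). These are means over the populations, and DKK1 from APS and SP5 from DE(a) had higher mean CPM in LM, by 1.27 and 1.38 times. TCF7 was lower by 0.36 ± 0.13 (edgeR, adjusted p = 0.0355), a call lost without replicate 1 of any LM condition or of MPS-DE(b), or without replicate 2 of DE(a)-DE(b), APS-DE(b) or PPS-DE(b) (adjusted p = 0.0589 to 0.0984).

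The members higher in LM than in DE(b) were LEF1, RNF43 and NOTUM. LEF1 was at 1.105 to 41.8 CPM in DE(b) (median 6.15), below every library of LM and PM, and differed from LM (log2 fold change 5.21 ± 0.18, adjusted p = 8.08e-16). It thus stood apart from AXIN2, which had its lowest levels in LM. RNF43 was at 2.70 to 7.47 CPM in DE(b) (median 3.73), with a log2 fold change of 1.48 ± 0.23 (adjusted p = 2.06e-05), and NOTUM at 2.92 to 11.7 (median 6.23), with a log2 fold change of 1.25 ± 0.39 (adjusted p = 0.0127). For both, LM and DE(b) libraries overlapped.

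DE(b) and PM were compared as the media without IWP2. In DE(b) 9 members were lower and LGR5 was higher, beside 21.6% of genes called lower and 21.4% higher, with a median of -2.52 (-0.01 over all genes). In 8 members, all but LGR5 and NOTUM, every DE(b) library lay under every PM library, which was so for 6.52% of all genes. The widest gap was that of LEF1 (log2 fold change -5.92 ± 0.19, adjusted p = 2.02e-16), followed by DKK1 (log2 fold change -4.43 ± 0.25, adjusted p = 2.11e-12). LGR5 was higher in DE(b) in the mean over the populations (log2 fold change 0.76 ± 0.19, adjusted p = 0.00233), with overlapping libraries. From DE(a) and APS it was lower in DE(b), with PM at 1.79 and 3.33 times the DE(b) mean.

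Against the undifferentiated Control, all 10 members remained higher in PM, beside 22.3% of genes called higher. In DE(b) 9 were higher, beside 22.4%, and ZNRF3 did not pass (log2 fold change 0.06 ± 0.19, adjusted p = 0.83). AXIN2 was higher in DE(b) (log2 fold change 0.91 ± 0.27, adjusted p = 0.00807), a call lost without Control replicate 2 (adjusted p = 0.0949). In LM 8 were higher and AXIN2 and ZNRF3 lower, beside 24.3% of genes called higher and 24.6% lower. AXIN2 in LM lay under both Control libraries in all 8 libraries (log2 fold change -1.19 ± 0.24, adjusted p = 0.000279). ZNRF3 was lower as well (log2 fold change -0.55 ± 0.18, adjusted p = 0.0141), a call lost without either Control replicate 1 (adjusted p = 0.0888) or Control replicate 2 (adjusted p = 0.0742). TCF7 was higher in LM (log2 fold change 0.82 ± 0.23, adjusted p = 0.00465), a call lost without Control replicate 1 (adjusted p = 0.0515). In the mean over the 4 populations, the other members kept large distances from the Control in LM. This did not hold in every population. In PPS-LM, LGR5 was at 0.210 and 0.328 CPM, under the 0.452 and 0.425 CPM of the Control. LEF1 was higher (log2 fold change 7.80 ± 0.40, adjusted p = 9.84e-13), and SP5 was at least 60.8-fold higher in LM, at least 133-fold in DE(b) and at least 1802-fold in PM. Over the members, DE(b) had a median of 3.02, PM of 6.47 and LM of 3.13, with -0.01, 0.00 and 0.02 over all genes.

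A further question was whether the level on day 2 still depended on the day 1 population, and so on the factors and CHIR dose of day 1. The answer differed between media. Within PM, 1 of 10 members differed between the 4 populations in the F test of edgeR, beside 7.47% of all genes. Within DE(b), 5 differed, beside 16.6%, and within LM 5, beside 19.6%. The interaction of day 1 and day 2 over the 12 conditions of day 2 was called for 6 members, LGR5, LEF1, SP5, RNF43, DKK1 and NKD1, beside 13.1% of all genes. AXIN2, ZNRF3, NOTUM and TCF7 passed neither this test nor those within a medium in this fit. These counts depend on the fit. With the fit restricted to the libraries compared, AXIN2 (adjusted p = 0.0382), RNF43 (0.0356) and ZNRF3 (0.0368) were called as well within DE(b), which made 8 members, and NOTUM within LM (0.000589). Without the low-count filter 9, 6 and 8 members were called within DE(b), PM and LM. The shares of all genes called are not given for each of these settings. Their counts therefore show only how the calls depend on the fit.

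LGR5 had the strongest dependence, and its order turned around between media (interaction adjusted p = 1.2e-07 in edgeR). In DE(b) it was at 43.8 and 69.8 CPM from DE(a), 25.7 and 31.4 CPM from APS, 177 and 145 CPM from MPS and 241 and 215 CPM from PPS. In PM it ran the other way, from 87.4 and 116 CPM after DE(a) and 80.1 and 109.7 CPM after APS to 37.1 and 67.1 CPM after MPS and 13.1 and 20.4 CPM after PPS. In LM it was at 19.8 and 18.1 CPM after DE(a) and 17.5 and 17.5 CPM after APS. After MPS it was at 2.27 and 0.285 CPM, from 39 and 6 counts, and after PPS at 0.210 and 0.328 CPM, from 4 and 6 counts, under the 0.452 and 0.425 CPM of the Control. PPS cells thus had the highest mean of LGR5 in DE(b) and the lowest in PM and LM. The F test within each medium was called (adjusted p = 2.26e-05 for DE(b), 0.000652 for PM and 1.04e-07 for LM). Markers moved with day 1 in DE(b) too. TBX6, MSGN1 and MESP2 of the paraxial mesoderm summed to 64.7 to 65.8 CPM in PPS-DE(b) and 1.92 to 11.8 in the other DE(b) libraries, with MESP2 at most 2.26 CPM in DE(b). SOX17, FOXA2 and CXCR4 summed to 124 to 252 CPM in PPS-DE(b) and 427 to 722 in the others, and TBXT, MIXL1 and EOMES to 1606 to 1739 and 1021 to 1457. The part of these cell types in the levels of LGR5, LEF1, NKD1, DKK1 and SP5 in PPS-DE(b) was not tested.

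LEF1 depended on day 1 in DE(b) (adjusted p = 7.51e-09, edgeR) and in LM (adjusted p = 0.000801), while the differences in PM did not pass (adjusted p = 0.694). In DE(b) it stood in the order of day 1 populations without overlap, at 1.49 and 1.105 CPM from DE(a), 2.21 and 3.11 CPM from APS, 11.9 and 9.19 CPM from MPS and 41.8 and 31.1 CPM from PPS. MPS and PPS had the same dose of CHIR, so the last of these steps was not one of dose. The highest mean was 28.1 times the lowest, and the DE(a)-DE(b) libraries overlapped those of the Control. In LM, LEF1 was at 68.4 and 154 CPM after DE(a), 260.1 and 324 CPM after APS, 382 and 327 CPM after MPS and 223 and 212 CPM after PPS. In PM its highest mean was 1.42 times its lowest.

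SP5 and DKK1 had a shared low point in APS-DE(b). SP5 in DE(b) was at 17.2 and 22.3 CPM from DE(a), 9.12 and 9.45 CPM from APS, 17.5 and 17.4 CPM from MPS and 31.3 and 32.9 CPM from PPS (adjusted p = 0.00178, edgeR). In LM it was at 25.4 and 29.1 CPM after DE(a) and at 4.51 and 3.02 CPM, 2.38 and 2.34 CPM and 2.42 and 2.57 CPM after APS, MPS and PPS (adjusted p = 6.43e-08), with its highest level in LM after DE(a). The DE(a)-LM libraries also stood apart in their markers. SOX17, FOXA2 and CXCR4 summed to 102 to 135 CPM there and 0.237 to 10.3 in the other LM libraries, the PS markers to 13.6 to 19.4 and 1.28 to 4.22, and the pluripotency markers to 274 to 415 and 127 to 195. Their part in the level of SP5 was not tested. DKK1 in DE(b) was at 17.2 and 19.0 CPM, 7.80 and 8.65 CPM, 34.2 and 22.7 CPM and 60.5 and 46.6 CPM from DE(a), APS, MPS and PPS (adjusted p = 0.00121). In LM, DKK1 ran against SP5, with its lowest level after DE(a) (1.60 and 4.32 CPM) and its highest after MPS (16.1 and 21.8 CPM). The F test of DKK1 in LM (adjusted p = 0.00341) was lost without DE(a)-LM replicate 1 (adjusted p = 0.0579).

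RNF43 in LM was set apart by 1 condition. It was at 5.12 and 7.30 CPM after DE(a), 6.41 and 4.94 CPM after APS and 7.43 and 11.4 CPM after MPS, but at 45.8 and 74.0 CPM after PPS (adjusted p = 2.09e-06, edgeR). The PPS-LM libraries were the only LM libraries in which RNF43 lay above both libraries of the same population in PM. They also had the highest summed level of the 5 amnion markers, 1036 to 1146 CPM, with 102 to 334 in the other LM libraries. IGFBP3 weighed most in this sum, as it reached 709 CPM in LM. TFAP2A, GATA3, ISL1 and GABRP reached at most 167, 140, 94.8 and 51.9 CPM there, and the study lists ISL1 as a lateral mesoderm marker too. The part of these markers in the level of RNF43 was not tested. In DE(b) the differences of RNF43 did not pass (adjusted p = 0.142). NKD1 in DE(b) stood in the same order of day 1 populations as LEF1, at 38.6 and 58.6 CPM from DE(a), 63.8 and 79.6 CPM from APS, 114 and 114 CPM from MPS and 202 and 187 CPM from PPS (adjusted p = 0.0091). This call was lost without PPS-DE(b) replicate 1 (adjusted p = 0.0623). The interaction of NKD1 (adjusted p = 0.0266) was lost without replicate 1 of DE(a)-DE(b) (0.0519), APS-DE(b) (0.0528), PPS-DE(b) (0.111) or PPS-PM (0.0735), or replicate 2 of PPS-DE(b) (0.0824).

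NOTUM and AXIN2 were not called within a medium in the fit of all libraries. NOTUM in LM stood at 40.0 and 34.6 CPM after DE(a), 19.4 and 19.2 CPM after APS, 11.0 and 8.84 CPM after MPS and 5.18 and 7.49 CPM after PPS, an order without overlap that missed the threshold in the fit of all libraries (adjusted p = 0.0771, edgeR). It was called with the fit restricted to the LM libraries (adjusted p = 0.000589) and without the low-count filter (adjusted p = 4.08e-27). The setting without the filter uses the same libraries, so the size of its p reflects the fit and is not stronger evidence. Its interaction (adjusted p = 0.314) was called without DE(a)-PM replicate 2 (adjusted p = 0.0317). AXIN2 in DE(b) went from 87.0 and 108 CPM after DE(a) to 52.6 and 57.3 CPM after PPS (adjusted p = 0.312), opposite to its order at 24 h.

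**Figure D4:**
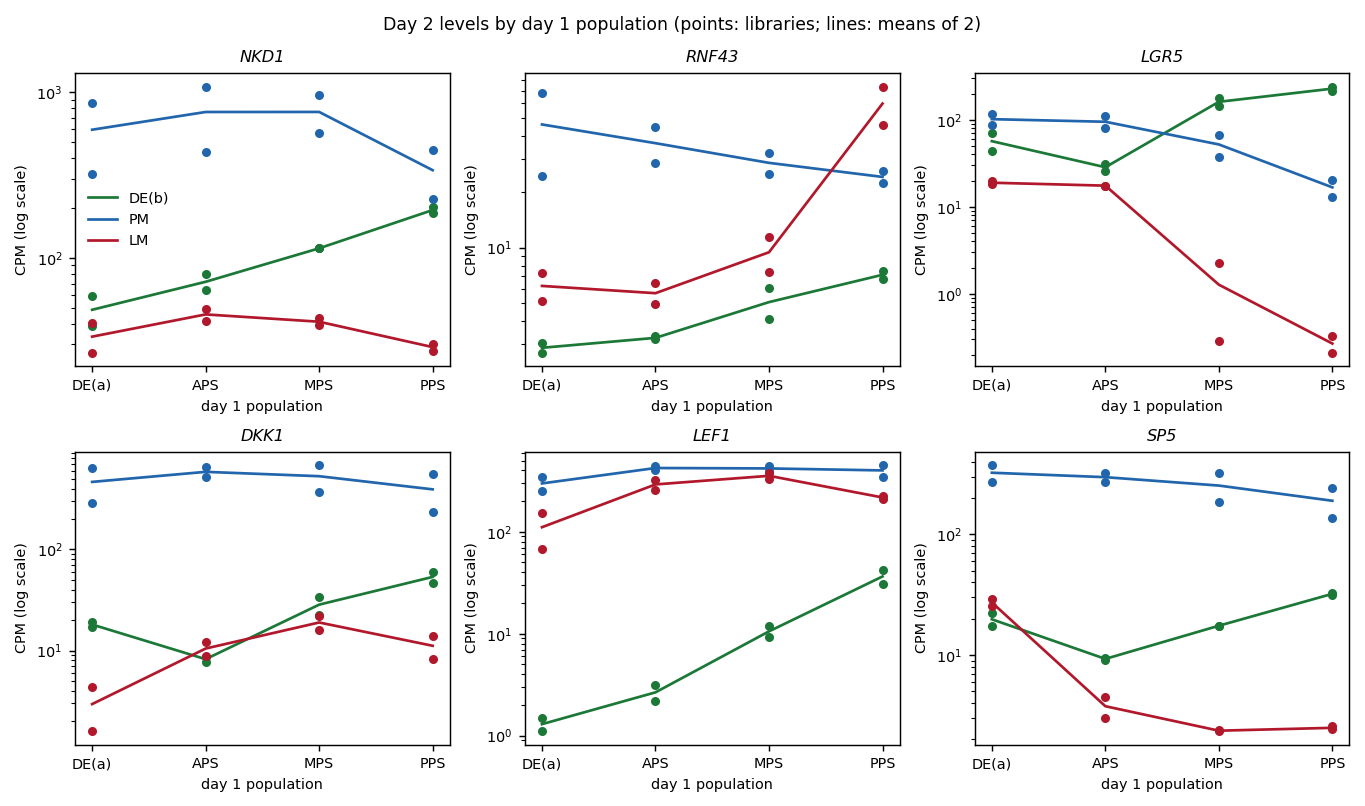
Levels on day 2 in CPM (log axes) of the 6 genes whose interaction of day 1 and day 2 was called, by day 1 population on the horizontal axis, with DE(b) in green, PM in blue and LM in red; points are libraries and lines join the means of 2. LGR5 rises toward PPS in DE(b), to 241 and 215 CPM, and falls toward PPS in LM, to 0.21 and 0.328 CPM, and LEF1 rises from 1.49 and 1.105 to 41.8 and 31.1 CPM in DE(b).

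The gap between the 2 replicates of these genes was wider in some media than in others. All replicate 1 libraries were deposited in one table and all replicate 2 libraries in another. In PM, replicate 2 was higher than replicate 1 in 40 of 40 pairs of gene and condition, so that 10 of 10 members were higher in 4 of 4 conditions, which was so for 16.7% of all genes. The median log2 ratio was 0.64 in PM. NOTUM had the widest gaps, at 4.498 and 36.4 CPM in DE(a)-PM, 15.7 and 77.5 CPM in APS-PM, 22.2 and 69.4 CPM in MPS-PM and 15.8 and 51.2 CPM in PPS-PM. AXIN2 was at 165 and 345 CPM in DE(a)-PM, and NKD1 at 438 and 1084 CPM in APS-PM. At 24 h replicate 2 was higher in 35 of 40 pairs (median log2 ratio 0.48), in DE(b) in 24 (0.07) and in LM in 25 (0.07). Genes and conditions of 1 replicate are not independent, and no test was made of these counts.

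**Figure D5:**
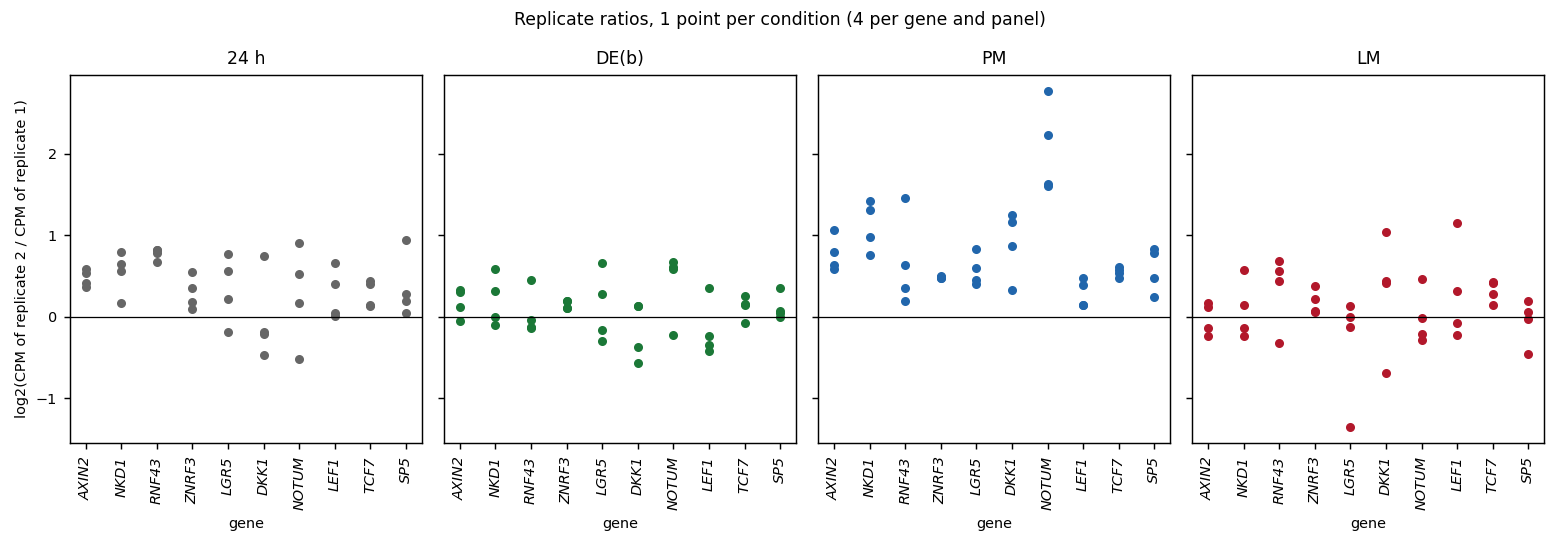
Log2 ratio of the CPM of replicate 2 to that of replicate 1 for each gene, with 1 point for each of the 4 conditions at 24 h and in each day 2 medium, and a line at 0. All 40 points in PM lie above 0, up to 2.77 for NOTUM in DE(a)-PM, whereas the points in DE(b) and LM lie on both sides of it.

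Over the 17 condition means of log2(CPM + 1), the correlation between members was between 0.05 (LGR5 with LEF1) and 0.97 (DKK1 with TCF7) with a median of 0.73 over 45 pairs, of which 39 were over 0.5. This describes 17 conditions that share media and the Control, and has no test. NKD1 (r = 0.984), DKK1 (0.967) and TCF7 (0.966) were most like the mean pattern of the members, and LGR5 (0.608) and LEF1 (0.595) least. Among 12263 genes over 10 CPM in some condition, those most like the members' mean included SFN (0.942), FAM53B (0.936), TTC29 (0.935) and PCLAF (0.930). The gene most like AXIN2 was TBXT (0.939), a marker of the PS, and the gene most like LEF1 was TCF4 (0.932), a factor of the E-protein family. For the others it was FAM53B (NKD1), MTSS2 (RNF43), SH3D19 (ZNRF3), BAG6 (LGR5), SLIT2 (DKK1), ZNF821 (NOTUM), TNS4 (TCF7) and TOR3A (SP5), with r between 0.881 and 0.966.

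Other genes of the pathway were read from 3 lists. Of 16 other reported Wnt targets, 10 were called higher than the Control in DE(a), 12 in APS, 13 in MPS and 13 in PPS, and 1, 1, 2 and 3 lower, with medians of 2.24, 3.66, 4.44 and 4.61 (1.99 in DE(a) with genes at the floor set at their bound). CDX1, a homeobox gene of the posterior embryo, had 0 counts in the Control and 174 CPM in PPS, at least 1177-fold higher. TBXT was at least 1888-fold higher in DE(a), where its mean was 279 CPM. FZD7, a Wnt receptor, fell from 519 CPM in the Control to 259 in DE(a), 146 in APS, 66.3 in MPS and 20.9 in PPS (in PPS log2 fold change -4.61 ± 0.29, adjusted p = 1.15e-10 in edgeR). In LM against PM, 12 of 16 were lower and 4 higher, with a median of -3.73. MSGN1, a factor of paraxial mesoderm, was at least 410-fold lower in LM, and ID2, a target of BMP signaling as well, was higher in LM, at 302 CPM compared with 17.5 (4.16 ± 0.15, adjusted p = 8.98e-16). Against DE(b), 6 were higher and 5 lower in LM (median 0.15), with ID2 the largest rise (4.53 ± 0.15) and MIXL1 the largest fall (-8.55 ± 0.29).

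Of 20 genes of the core machinery, counted under 21 identifiers because TNKS has 2, 2, 4, 4 and 6 were called higher than the Control in DE(a), APS, MPS and PPS and 5, 5, 6 and 5 lower, with medians between -0.05 and 0.09. WLS, which carries Wnt ligands to the cell surface, was at 1.28 CPM in the Control and at 164, 318, 570 and 717 CPM in DE(a), APS, MPS and PPS. TCF7L1, a TCF factor known as a repressor in hPSCs, fell from 236 CPM in the Control to 6.56 in MPS (-5.07 ± 0.27, adjusted p = 9.16e-12 in edgeR). TLE1, a co-repressor, fell from 158 CPM to 21.4 in DE(a). In LM against PM, 10 were higher and 1 was lower (median 0.09). TLE1 had the largest rise (2.14 ± 0.21), and AXIN1, the constitutive relative of AXIN2, the only fall (-0.36 ± 0.14, adjusted p = 0.0424). Against DE(b), 7 were higher and 7 lower in LM (median -0.06), with WLS at 559 CPM in LM and 175 in DE(b) (1.80 ± 0.08) and TLE1 at 43.3 and 99.4 (-1.22 ± 0.20).

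Of 20 secreted modulators and their receptors, 19 were tested, without RSPO1. Called higher than the Control were 5, 6, 7 and 6 in DE(a), APS, MPS and PPS, and 6, 5, 6 and 5 lower, with medians of -0.44, -0.48, -0.69 and -0.09 (-0.28 and -0.46 in DE(a) and APS with genes at the floor set at their bound). SFRP1, a secreted Wnt antagonist, fell from 443 CPM in the Control to 8.19 in APS (-5.67 ± 0.25), 10.3 in MPS and 11.0 in PPS. DKK4, a relative of DKK1, had 0 counts in the Control and mean levels of 212, 477 and 203 CPM in DE(a), APS and MPS, at least 1434-, 3231- and 1379-fold higher. RSPO2 and RSPO3 are R-spondins. RSPO3 was at least 66.4-fold higher in PPS than in the Control, and RSPO2 at least 4.92-fold lower in DE(a). In LM against PM, 5 were higher and 11 lower (median -0.75). RSPO2 was at 65.7 CPM in LM, at least 435-fold above PM and at least 394-fold above DE(b), and DKK4 was at least 157-fold lower in LM than in PM. Against DE(b), 5 were higher and 8 lower in LM (median -0.45, or -0.23 with bounds), and CER1, a secreted antagonist of Wnt, BMP and Nodal ligands, was at 0.428 CPM in LM and 4526 in DE(b) (-16.26 ± 0.58).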

How the data were processed

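Bulk RNA sequencing reads of 34 libraries were quantified by the authors with Salmon 1.10.2 and R 4.4.2, per the submitters' processing notes, and deposited as estimated counts per gene in 2 tables, 1 for each replicate number. Here counts were rounded, filtered with filterByExpr by condition, which left 17895 of 37951 genes, scaled by TMM and fitted in edgeR 4.0.16 with 1 mean for each of 17 conditions (17 residual degrees of freedom, common dispersion 0.0611). Contrasts and F tests used the quasi-likelihood test with Benjamini-Hochberg adjustment over all genes tested. Calls were made at an adjusted p under 0.05. Comparisons of media used the mean of the 4 day 1 populations in each. CPM were taken on the library total. Positions are from GENCODE v44 and promoters from RefSeq. The scripts were tested on simulated data. Alternatives were RLE scaling, no low-count filter, a replicate term, a fit of only the libraries compared, DESeq2 1.42.0 and leaving out each library in turn, which kept the genes tested and the dispersion trend of the full fit. R 4.3.3, limma 3.58.1, Python 3.11.15, numpy 2.4.6, pandas 2.3.3 and matplotlib 3.10.9 were used. The members and lists were chosen with earlier results of these data known. Genes named were all 10 members, from each list the called gene over 10 CPM in a condition with the largest rise and the largest fall, the 5 genes most like the members' mean, of which 1 is not reported here, and the gene most like each member.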

Additional observations from a re-analysis of the deposited data

Results flagged for a closer look

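For 6 of the 10 genes the effect of the day 1 treatment differed between the day 2 media, by the interaction term of edgeR over the 12 conditions of day 2. The adjusted p was 1.2e-07 for LGR5, 2.29e-06 for LEF1, 8.08e-06 for SP5, 0.000536 for RNF43, 0.00358 for DKK1 and 0.0266 for NKD1. LGR5 was highest after PPS in DE(b) and lowest after PPS in PM and LM. LEF1 differed most in DE(b), RNF43 was high in PPS-LM, and SP5 was highest in LM after DE(a). For NKD1 the value was 0.0503 with the fit restricted to the day 2 libraries and 0.00599 to 0.111 with 1 library left out.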

How the results depend on the processing

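NOTUM, DKK1, LGR5 and SP5 held 10 counts or fewer in each Control library, which limits their fold changes over it. Of the counts of members called, all 21 stayed within 1.5 times under RLE scaling, and those of the media against each other, against the Control and, for DE(b) and LM, against 24 h did so under every alternative. Without the low-count filter the count was 8 in APS against DE(a), 3 in MPS against APS, 3 in PPS against MPS, and 9, 6 and 8 for day 1 within DE(b), PM and LM. For some members that setting gave far smaller p-values from the same libraries, such as 4.08e-27 for NOTUM within LM (edgeR, adjusted). Its counts are thus not stronger evidence. In DESeq2 it was 4 in APS against DE(a) and 2 in PPS against MPS. With the fit restricted to the libraries compared it was 1 in APS against DE(a), where LEF1 lost its call (adjusted p = 0.117), 1 in MPS against APS, 3 in PM against 24 h and 8 for day 1 within DE(b). With 1 library left out it was 1 to 2 in APS against DE(a), 1 to 2 in PPS against MPS, 3 to 6 in PM against 24 h and 6 to 9 for the F test at 24 h. Over all genes, APS against DE(a) gave 131 calls and 37 to 570 over the alternatives, MPS against APS 524 and 232 to 1144, PPS against MPS 1098 and 266 to 1876, and day 1 within PM 1337 and 272 to 2528. The F test at 24 h gave 3359 and as few as 1904, day 1 within DE(b) 2973 and as few as 1691, and the interaction 2351 and up to 4091. Directions turned only with 1 library left out and only where no call was made. These were TCF7 (-0.11 to 0.33) and SP5 (-0.172 to 0.0728) in MPS against APS, NKD1 (-0.25 to 0.39), NOTUM (-0.0530 to 0.853) and SP5 (-0.898 to 0.0389) in PPS against MPS, and RNF43 (-0.28 to 0.11), ZNRF3 (-0.0119 to 0.147) and LGR5 (-0.00753 to 0.259) in PM against 24 h. Of the 5 genes most like the members' mean by Pearson's r, 1 was among the 5 by Spearman's rho. The cause of these changes was not tested.

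Deviations of same-numbered libraries correlated at -0.0743 to 0.34 over 136 pairs of conditions (median 0.0755). The correlation was over 0.1 in 43 pairs and not in all, so the numbers were not taken to pair the libraries, although replicate 2 of the members was the higher in 40 of 40 pairs in PM and 35 of 40 at 24 h. The bar of 0.1 in all pairs was chosen here and does not exclude a replicate effect in part of the conditions. With a replicate block, 6 members were called in APS against DE(a), 2 in MPS against APS, 3 in PPS against MPS and 2 for day 1 within PM, and the other counts stayed within 1.5 times. The block lost no call of a member and added 15 in edgeR. In APS against DE(a) these were AXIN2 (adjusted p = 0.0214), NKD1 (0.00413), RNF43 (0.0198) and TCF7 (0.000558), in MPS against APS NKD1 (0.0424) and RNF43 (0.0327), in PPS against MPS RNF43 (0.01) and TCF7 (0.0175), and in DE(a) against the Control ZNRF3 (0.0283). For day 1 they were RNF43 (0.0196) and ZNRF3 (0.00542) within DE(b), TCF7 (0.00252) within PM and NOTUM (0.0168) within LM, and for the interaction AXIN2 (0.0229) and TCF7 (0.00283).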
